A study of Danio rerio with 2 samples.

Results

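The SoxB1 genes of zebrafish were followed through cells sorted for a pigment cell reporter: sox2, sox3, sox1a, sox1b, sox19a and sox19b. They were chosen by symbol, and all 6 were found as 1 row each among the 25107 genes of the deposited tables, under the Ensembl identifiers ENSDARG00000070913 (sox2), ENSDARG00000053569 (sox3), ENSDARG00000069866 (sox1a), ENSDARG00000008131 (sox1b), ENSDARG00000010770 (sox19a) and ENSDARG00000040266 (sox19b). The study sorted cells from Tg(mitfa:GFP) embryos, in which the promoter of the melanophore regulator mitfa drives green fluorescent protein (GFP), at 24 hours after fertilisation. Cells with low and cells with high GFP were each sequenced as 1 droplet-based 3' single-cell RNA library. Both groups therefore share genotype and age and differ in the GFP gate, and how many embryos were pooled is not given in the sources used here. The GFP gate did not hold only pigment cells, since the deposited clusters include brain, eye, skin and muscle cells, and the SoxB1 genes were read out over all of them.

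SoxB1 proteins bind DNA through an HMG box and keep cells of the early nervous system in a dividing, undifferentiated state. Proneural factors push the same cells towards becoming neurons, and SoxB1 levels usually fall as neurons are born. Sox2 and Sox3 mark most neural progenitors, Sox2 also marks progenitors of the retina, Sox19b is supplied by the mother and acts when the embryo switches on its own genome, and Sox1a and Sox1b are known in the zebrafish spinal cord from classes of inhibitory interneuron.

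Levels are given in CPM, the unique molecular identifiers (UMIs, 1 per captured RNA molecule) of a gene for every 1000000 UMIs of the same group of cells. The deposited cell table kept 2361 low and 2374 high cells, at median depths of 5732 and 6858.5 UMIs, and the libraries shared 1 cell barcode. Level of mitfa itself was 136.5 CPM in low and 472.8 in high cells, the order the labels give. With 1 library per GFP fraction there was no replicate and no test was possible. All intervals are exact 95% intervals that cover counting error only. The clusters were made from the same expression values, and sox3 and sox19a stood among the 10 genes that led cluster 0, so differences between clusters are descriptions. Clusters are called by their leading genes: 0 neural progenitor-like, 1 crest-like, 2 mesenchyme-like, 3 xanthophore-like, 4 neuron-like, 5 retina-like, 6 melanophore-like, 7 epidermis-like, 8 muscle-like and 9 islet-like. These names rest on marker lists written with earlier results of these data known. Muscle-like cells, which should lack SoxB1 RNA, serve as the background. Their SoxB1 UMIs sat in few cells, with 5 of 84 low and 4 of 69 high cells holding 87.5% and 85% of them. Their summed SoxB1 level, 38.0 and 28.6 CPM, was above that of xanthophore-like cells, at 10.3 and 12.2. How much of it was free RNA in the droplets was not tested.

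Over all kept cells, 5 of the 6 genes were lower in CPM in the high than in the low library beyond counting error, and the 6 differences were of like size. Sox2 stood at 126 CPM (95% interval 121 to 132) in low and 89.8 (85.4 to 94.3) in high cells. Sox3, the most counted of the set with 2289 and 1932 UMIs, stood at 154 and 110 CPM, and sox19a at 74.0 and 52.0. Sox1b stood at 19.8 and 14.0, sox19b at 11.7 and 7.41, and sox1a at 4.05 and 2.74. On the log2 scale the difference of high from low lay between -0.66 (sox19b) and -0.49 (sox3), with sox1a at -0.56 and an interval from -1.14 to 0.01. For the summed SoxB1 UMIs it was -0.50 (-0.56 to -0.44). None of the 6 genes was lower by 2-fold or more, against 3.09% of the genes compared, which were those with at least 50 UMIs over both groups.

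The share of cells that were neural progenitor-like moved the same way, with cluster 0 at 42.4% of the cells in low and 32.3% in high. Within cluster 0 the summed level and those of sox2, sox3, sox19a and sox1b were not lower in the high library. Sox2 was at 266 CPM (252 to 280) in low and 288 (271 to 305) in high cells, a log2 difference of 0.12 (-0.00 to 0.23). Sox3 was at 393 (376 to 411) and 430 (409 to 451), and sox19a at 188 (176 to 200) and 208 (194 to 223). The summed SoxB1 level was 925 in low and 1005 in high cells of this cluster, higher in high by 0.12 (0.06 to 0.18) on the log2 scale. Sox19b was again the lower in high cells, at 30.1 in low and 28.5 in high, but within counting error (-0.08, -0.45 to 0.28). No member of the 5 with enough UMIs differed by 2-fold in either direction in cluster 0, against 0.815% of genes. The lower summed SoxB1 level of the whole high library was thus not seen among its neural progenitor-like cells. Other clusters went both ways. In neuron-like cluster 4 the sum was 434 (391 to 480) in low and 342 (300 to 388) in high. In crest-like cluster 1 it was 65.8 and 38.7. It was higher in high in retina-like cluster 5, at 260 (232 to 290) and 320 (286 to 358), and in epidermis-like cluster 7, at 119 and 157. The GFP gate set the mix of cell types as well, so GFP level and cell mix cannot be told apart over all cells.

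Cluster 0 held 80.1% of all SoxB1 UMIs in each library. Of the sox3 UMIs it held 86.2% in low and 85.9% in high, of sox19a 85.9% and 88.1%, and of sox19b 86.8% and 84.6%. The share was smaller for sox2, 71.1% and 70.5%, while retina-like cluster 5 held a further 12.7% and 14.5% and crest-like cluster 1 held 8.16% and 6.73%. Sox1b had 76.2% and 75.5% of its UMIs in cluster 0. Sox1a departed from the other members: neuron-like cluster 4, with 8.34% of low and 6.23% of high cells, held 75.0% and 62.5% of its UMIs, while cluster 0 held 23.3% and 25.0%.

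**Figure D1:**
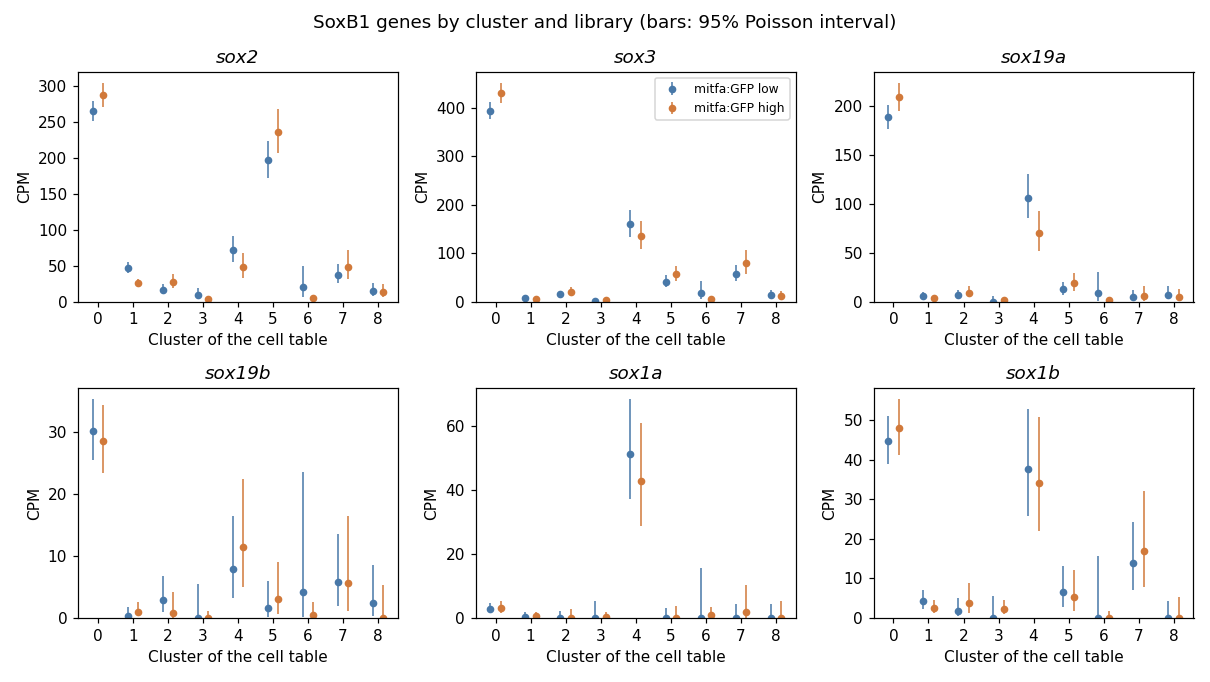
CPM (vertical axis, linear, from 0, its own scale for each gene) of each SoxB1 gene in clusters 0 to 8 (horizontal axis), with points for the low (blue) and high (orange) library and bars for exact 95% Poisson intervals. Sox3, sox19a and sox19b peak in cluster 0, sox2 is also high in cluster 5 (197 and 236), sox1b is nearly as high in cluster 4 as in cluster 0, and sox1a peaks in cluster 4 (51.2 and 42.7).

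In neural progenitor-like cells most cells carried SoxB1 RNA, and most carried it from sox2 or sox3. A UMI of any member was found in 87.2% of the low and 88.1% of the high cells of cluster 0, at median depths of 4559 and 4447 UMIs. Sox2 was seen in 58.2% and 61.8% of these cells, sox3 in 56% and 59.5%, and sox19a in 48.1% and 49.4%. Sox1b was seen in 14.2% and 14.0%, at 44.7 CPM (39.0 to 50.9) in low and 47.9 in high cells, and sox19b in 12.2% and 12.1%, at 30.1 (25.5 to 35.3) and 28.5. Sox1a was nearly missing, with 14 UMIs in 9 cells of the low and 12 UMIs in 9 cells of the high library. Muscle-like cells, though deeper at 9634 and 10488 UMIs, had a sox2 UMI in 7.14% (6 of 84 cells) and 7.25% (5 of 69), and a sox3 UMI in 4.76% and 4.35%. The highest count in 1 cell of cluster 0 in the low library was 23 for sox3, 13 for sox2 and 34 for the sum.

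Each cell was also thinned to 2000 UMIs, leaving out shallower ones (82 low and 43 high cells of cluster 0), so that shares could be set side by side at equal depth. At that depth 70.6% of the low and 72.6% of the high cells of cluster 0 had at least 1 SoxB1 member, and 36.0% (32.9 to 39.2) and 37.5% (34.0 to 41.2) had at least 2. In neuron-like cluster 4 the share with at least 2 members was 14.4% and 12.3%, and in retina-like cluster 5 it was 5.05% and 5.74%. Sox2 and sox3 were seen together in 18.1% and 19.1% of cluster 0 cells, 1.21 and 1.16 times the product of their single shares. Sox3 and sox19a were together in 16.7% and 17.5%, 1.39 times the product in each library, the largest excess among sox2, sox3 and sox19a. Pairs with rarer members lay on both sides of this, as sox19a and sox19b at 1.49 and 1.58 and sox3 and sox1b at 1.09 and 0.999. Sox2 was the only member seen in 12.5% and 13.3%. Members that share a cell share its depth and its free RNA, so these ratios are descriptions of sparse counts.

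The make-up of the SoxB1 UMIs differed between clusters and was close between the libraries. In cluster 0, sox3 made up 42.6% and 42.8% of the SoxB1 UMIs, sox2 28.7% and 28.6%, and sox19a 20.3% and 20.7%. In cluster 4 sox3 again came first (36.7% and 39.6%), followed there by sox19a (24.4% and 20.4%) and then sox2 (16.5% and 14.2%), with sox1a at 11.8% and 12.5% of the total. In cluster 5 sox2 alone made up 76.0% and 73.8%, and in cluster 1 it made up 70.8% (64.3 to 76.8) and 67.1% (59.2 to 74.3). Epidermis-like cluster 7 was led by sox3 at 48.5% and 50%, followed by sox2 at 31.1% and 31.0%, and had little sox19a at 3.88% and 3.57%. The make-up of the low counts of muscle-like cluster 8 had sox2 at 40.6% (23.7 to 59.4, from 32 UMIs) and 45.0% (23.1 to 68.5, from 20 UMIs), and the interval of the high library overlapped that of cluster 1.

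**Figure D2:**
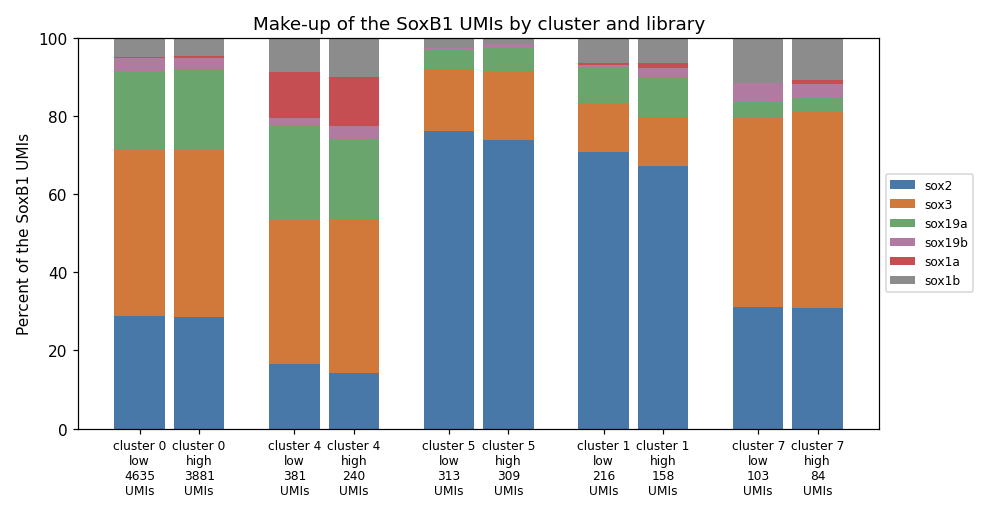
Percent of the SoxB1 UMIs (vertical axis, 0 to 100) that came from each gene, as stacked bars for clusters 0, 4, 5, 1 and 7 in the low and the high library, with the number of SoxB1 UMIs under each bar. The paired bars look alike, sox2 fills most of clusters 5 and 1, and sox1a forms a broad band only in cluster 4 (11.8% and 12.5%).

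Between neural progenitor-like and neuron-like cells, sox2, sox3, sox19a and sox19b were lower in the neurons, sox1b differed by less than counting error, and sox1a was higher. Sox2 was at 71.7 CPM (55.1 to 91.8) in low and 48.4 (33.6 to 67.7) in high cells of cluster 4, a log2 difference from cluster 0 of -1.89 and -2.57. Sox3 was at 159 (134 to 188) and 135 (110 to 166), a smaller difference of -1.30 and -1.67. Sox19a was at 106 (85.5 to 130) in low and 69.8 (51.7 to 92.3) in high cells, differing by -0.83 and -1.58. Sox3 was thus still seen in 24.4% and 30.4% of the neuron-like cells, against 15.23% and 12.8% for sox2. Sox1b was at 37.6 (25.9 to 52.8) and 34.2 (21.9 to 50.9), which differed from cluster 0 by -0.25 and -0.49. Sox1a was at 51.2 (37.4 to 68.6) and 42.7 (28.8 to 61.0), which was 4.2 (3.31 to 5.18) and 3.78 (2.77 to 4.88) above cluster 0 on the log2 scale. In the low library 3 of the 6 members (sox2, sox3 and sox19b) were lower by 2-fold or more, against 25.2% of genes. In the high library 4 of the 5 with enough UMIs (the same 3 and sox19a) were, against 25.3% of genes.

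Cells of clusters 0 and 4 were then ordered by elavl3, an RNA-binding protein gene switched on in new neurons, after thinning each cell to 2000 UMIs. Cells with 0, 1 and at least 2 elavl3 UMIs numbered 670, 142 and 284 in low and 531, 114 and 216 in high cells. Of these, 2, 5 and 170 in low and 1, 1 and 135 in high were of cluster 4, so the last group mixes both clusters. Sox2 went from 258 to 275 to 147 CPM over these steps in low and from 267 to 316 to 160 in high cells. Sox3 went from 343 to 442 to 327 and from 366 to 505 to 356. The cells with 1 elavl3 UMI thus had more sox3 than those with none, by 0.37 and 0.47 on the log2 scale, and those with at least 2 had about as much as those with none (-0.07 and -0.04). The last group held 443 and 374 sox3 UMIs, against 140 and 95 in all of cluster 4. Most of them thus came from its cluster 0 cells, and the level does not describe the neuron-like cells alone. Sox19a went from 175 to 197 to 155 and from 191 to 235 to 125, sox1b from 43.5 to 55.3 to 39.1 and from 43.6 to 66.7 to 42.8, and sox19b ended at 15.5 and 20.

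Sox1a was highest at 2 or more elavl3 UMIs, at 32.5 CPM in low and 28.5 in high cells against 2.43 and 2.79 at 0. Its middle step rests on 3 and 4 UMIs, at 4.25 (0.88 to 12.4) and 7.02 (1.91 to 17.97), and did not differ from the first beyond counting error. At 2 or more against 0 elavl3 UMIs the log2 difference was 3.74 and 3.36 for sox1a, -0.81 and -0.74 for sox2, and -0.18 and -0.62 for sox19a. Across 20 thinning draws sox2 stayed between -0.95 and -0.57 in low and between -0.85 and -0.58 in high cells, while sox3 crossed 0 in both (-0.15 to 0.09 and -0.12 to 0.33), so no direction is read for sox3. No member was lower by 2-fold or more between these groups, 0 of 6 against 12.9% of genes in low and 0 of 5 against 13.4% in high cells.

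**Figure D3:**
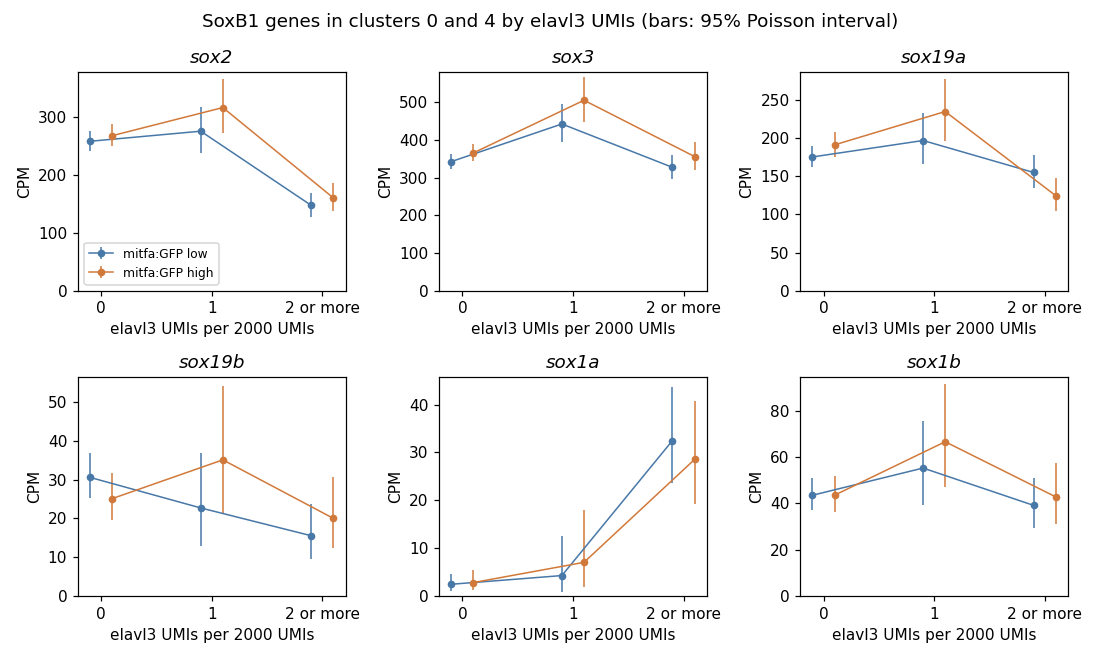
CPM (vertical axis, linear, from 0) of each SoxB1 gene in cells of clusters 0 and 4 with 0, 1 or at least 2 elavl3 UMIs per 2000 UMIs (horizontal axis), with the low library in blue, the high library in orange and exact 95% Poisson intervals. Sox2 drops at the last step (147 and 160), sox3 is highest at the middle step (442 and 505), and sox1a is highest at the last step (32.5 and 28.5).

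Sox1a came from few neurons. Of the cells in cluster 4, 18 of 197 (low) and 11 of 148 (high) had it, 10 and 7 of them with at least 2 sox1a UMIs. Of these cells 61.1% (11 cells) and 36.4% (4 cells) also had sox1b, against 2.79% and 5.11% of the other neuron-like cells. At 2000 UMIs a cell, sox1a and sox1b were seen together in 3.85% and 1.87% of cluster 4, which was 8.63 and 6.19 times the product of their single shares. Sox1b accordingly stood at 338 CPM in the low cells with sox1a and at 6.29 in the rest, and at 273 and 15.4 in the high ones.

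Genes that moved with sox1a and sox1b in cluster 4 were picked after their values were seen and are given as descriptions. Cells with sox1a had more vsx1, a homeobox gene of V2 interneuron progenitors, at 338 against 57.8 CPM in low and 1368 against 72.2 in high cells. They had more gad2, which makes the inhibitory transmitter GABA, at 314 against 44.0 and 195 against 49.2. Read the other way, cells with vsx1 had sox1a at 87.9 against 48.2 CPM in low, within counting error (log2 0.87, -0.66 to 2.12). In high they had it at 209 against 21.0 (3.32, 2.19 to 4.48). Cells with the gene sst1.1 had sox1a at 1208 against 35.8 in low (5.08, 4.05 to 6.03). In high the sst1.1 cells had it at 291 against 41.5, within counting error (2.81, -2.54 to 5.40). Of 7 listed spinal interneuron genes, 2 in low and 1 in high had enough UMIs to compare clusters 4 and 0. No class of neuron is read from vsx1 and gad2. The other genes higher with sox1a were of several kinds. Atp1a3b, a neuronal sodium pump subunit, was at 834 against 187 and 762 against 143, although the share of cells with it was close, at 27.8% against 17.9% and 18.2% against 17.5%. The granule protein gene scg2b was at 605 against 162 and 840 against 157. The division genes rrm2, at 399 against 94.3 and 645 against 72.2, and cenpf, at 181 against 51.5 and 528 against 79.9, were higher as well. Of the cells with sox1a, 14 of 18 in low and 6 of 11 in high were assigned to the G1 phase. In the whole cluster it was 163 of 197 and 127 of 148. The other 5 sox1a cells of the high library were called G2M. In cells with against without sox1a, sox2 was at 205 against 57.8 and 117 against 43.0. Cells with sox1b had more dlx1a, a forebrain homeobox gene of inhibitory neurons, at 1076 against 91.0 in low and 448 against 36.2 in high cells, and more slc32a1, the vesicular transporter of GABA, at 753 against 156 and 463 against 92.9. The Delta ligand dlb was lower in sox1b cells, at 215 against 1314 and 209 against 1405. The link to dlx genes was shared with sox2. Cells with at least 2 UMIs of dlx1a or dlx2a had sox1b at 220 against 26.6 in low and 237 against 21.2 in high. They had sox2 at 280 against 59.2 and 379 against 27.3. Sox19a was higher by 1.43 (0.46 to 2.28) and 1.38 (-0.02 to 2.55) on the log2 scale.

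Neuron-like cells with sox3 looked different from those with sox1a. Cells with a sox3 UMI had more dla, another Delta ligand, at 2234 against 384 CPM in low and 1338 against 202 in high cells, and more of the receptor gene notch3, at 378 against 60.2 and 229 against 61.6. The proneural factor neurog1 was at 183 against 46.3 and 268 against 76.5. They had less elavl4, a gene of later neurons, at 469 against 1241 and 416 against 1285, less atp1a3b, at 39.1 against 323 and 39.0 against 261, and less gad2, at 4.34 against 92.6 and 4.33 against 87.1. Read the other way, cells with dla (84 low and 59 high) had sox3 at 275 against 76.3 and 263 against 51.9, and sox19a at 221 against 23.5 and 155 against 14.2. Sox1a did not share this, at 38.2 against 60.6 and 32.4 against 49.5. Neuron-like cells with sox2 had more id1, an inhibitor of proneural factors, at 2072 against 362 and 2219 against 525, and id3, at 250 against 51.0 and 189 against 59.3, and had sox3 at 408 against 107 and 350 against 94.8. Median depth was close in cells with and without sox3 (3916 and 3993 UMIs in low, 4309 and 4150 in high cells).

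Taken as a whole, retina-like cells kept sox2 and had little of the other members. Sox2 was at 197 CPM (173 to 224) in low and 236 (207 to 269) in high cells of cluster 5, seen in 47.3% and 47.8% of cells, and differed from cluster 0 by -0.43 (-0.63 to -0.23) and -0.28 (-0.50 to -0.08) on the log2 scale. Sox3 was at 41.5 (30.8 to 54.7) and 57.0 (43.0 to 74.3), which was -3.25 and -2.91 from cluster 0. Sox19a was at 12.4 and 18.7 (-3.92 and -3.48), sox1b at 6.63 and 5.19 (-2.75 and -3.21), and sox19b at 1.66 and 3.11 (-4.18 and -3.20). Sox1a had 0 UMIs in both libraries, 0 of 186 and 0 of 159 cells. By counting error alone, 3 counts of the total allow up to 1.61% and 1.89% of cells with a sox1a UMI, which does not limit the share of cells that express it. Sox3, sox19a, sox19b and sox1b were lower by 2-fold or more, 4 of the 5 members with enough UMIs in each library, against 15.8% of genes in low and 14.3% in high cells. Giving each cell equal weight moved sox19a to -1.85 in low and -2.49 in high cells.

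Within cluster 5 the sox2 level differed with the melanin genes dct, tyrp1b and pmela, which mark the pigmented layer of the eye. Cells were split, after the data were seen, by at least 2 UMIs of these genes. In the 12 low cells with them sox2 was at 11.5 CPM (0.29 to 63.9), from 1 UMI, and in the 11 high ones it had 0 UMIs (0 to 58.4). In the other cells of the cluster, 174 low and 148 high, it was at 212 (186 to 241) and 253 (221 to 288), and the intervals did not overlap. Median depth was alike, at 6492 against 6389 UMIs in low and 6165 against 5555.5 in high cells. Sox3 was at 34.4 (7.09 to 100.5) against 42.0 (30.9 to 55.9) and at 31.6 (3.83 to 114) against 58.8 (44.1 to 76.9), with no difference detectable at this depth. From the other side, cells with a sox2 UMI had nr2e1, an orphan receptor gene of retinal progenitors, at 92.6 against 17.9 and 98.8 against 11.9, dct at 2.85 against 318 and 4.78 against 351, and pmela at 5.70 against 326 and 6.37 against 244. Cells of cluster 5 with sox3 had her12, at 320 against 27.8 and 220 against 33.5, and nr2e1, at 193 against 35.7 and 220 against 24.1. Another split, also chosen after the data were seen, used at least 1 UMI of the proneural genes atoh7 or neurod4. With them sox3 was at 180 against 31.9 in low and 373 against 45.2 in high cells. The log2 differences were 2.49 (1.49 to 3.42) and 3.04 (2.02 to 3.97). Sox2 was at 488 against 177 and 373 against 231, in high within counting error (0.69, -0.24 to 1.49). Cells with sox2 were deeper (medians of 7779 and 7255.5 UMIs against 4865 and 3038), and the part of depth in these values was not tested.

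**Figure D4:**
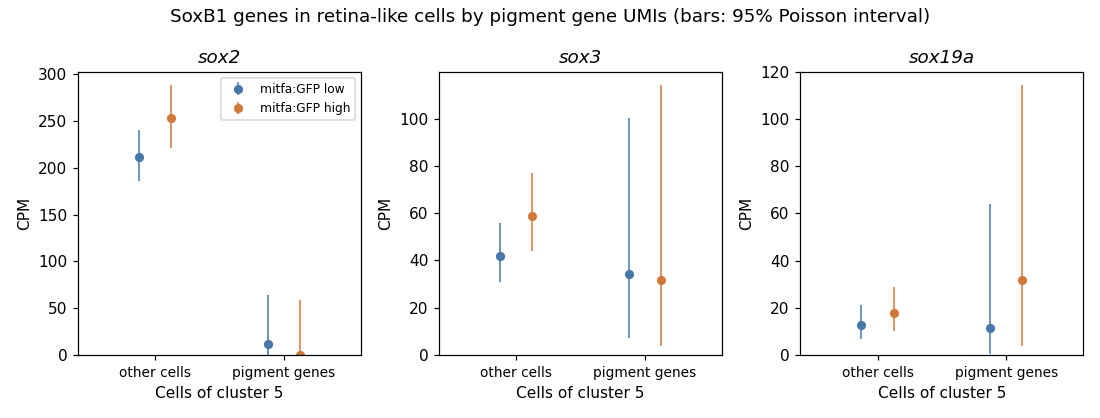
CPM (vertical axis, linear, from 0) of sox2, sox3 and sox19a in retina-like cells with at least 2 UMIs of pigment genes and in the other cells of cluster 5 (horizontal axis), with the low library in blue, the high library in orange and exact 95% Poisson intervals. Sox2 steps down from 212 and 253 to 11.5 and 0, while the wide intervals of sox3 and sox19a in the pigment gene cells allow no order.

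Levels in the progenitors were also read by cell cycle phase, as the cell table assigns it from phase genes. In cluster 0 the G1, S and G2M cells numbered 213, 389 and 399 in low and 160, 299 and 308 in high cells. Sox2 was at 257, 239 and 293 CPM in low and 263, 256 and 328 in high cells, so G2M stood above G1 by 0.19 and 0.32 on the log2 scale. The intervals of the G1 and G2M levels overlapped in low (224 to 294 and 271 to 316) and narrowly in high cells (224 to 306 and 301 to 357). Overlap of separate intervals does not by itself place a difference within counting error. Sox3 was at 474, 356 and 397 in low and 511, 411 and 416 in high cells, with S below G1 by a log2 difference of -0.41 and -0.31. Sox1b had the same shape with a larger step, at 63.7, 35.2 and 46.2 in low and 69.2, 34.9 and 52.2 in high cells (S against G1 -0.86 and -0.99). Sox19a was at 196, 186 and 187 in low and at 181, 221 and 206 in high cells, with no order held by both libraries. For S against G1, 0 of 5 members were past 2-fold in either direction, against 12.8% of genes in low and 10.9% in high cells. For G2M against G1 it was again 0 of 5, against 12.8% and 11.9%. Free RNA can enter the phase calls too, and its part was not tested.

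In the eye the G1 cells stood apart. Those of cluster 5, 18 in low and 16 in high, had 1 sox2 UMI in each library (8.71 and 15.9 CPM), against 206 and 266 in S and 244 and 228 in G2M cells. Of the pigment gene cells described above 7 of 12 and 6 of 11 were called G1, and of the other cells 11 of 174 and 10 of 148, so phase and pigment genes overlapped. The G1 cells outside the pigment gene cells also had at most 1 sox2 UMI in each library. In cluster 4 most cells were called G1, 163 of 197 and 127 of 148, and levels by phase are not compared there.

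Within neural progenitor-like cells, the members differed by brain region as read from regional genes. These splits were chosen after the data were seen, and cells are placed by 1 UMI of a marker, so cells without it can belong to the same region. Of the 5 members with enough UMIs, sox1b differed the most over the engrailed, six3b and foxg1a splits. It was at 12.7 CPM (7.43 to 20.4) in low cells with the midbrain and hindbrain boundary genes en2a or en2b (217 cells) and at 56.3 in those without. In the high library, with 155 such cells, the levels were 8.97 and 61.6. With six3b, a gene of the front of the forebrain (204 low and 162 high cells), sox1b was at 99.4 against 27.7 and 117 against 25.7. In cells with foxg1a, the telencephalon gene, of which there were 48 and 34, it was at 147 against 39.1 and 235 against 39.7.

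Sox2, sox3 and sox19a did not share the sox1b pattern. Sox2 was level across the engrailed split, at 258 against 269 in low and 275 against 292 in high cells, and across the six3b split, at 250 against 271 and 289 against 287. Sox3 ran against sox1b. It was lower in six3b cells, at 275 against 430 and 223 against 496, and higher in engrailed cells, at 451 against 372 and 496 against 406. Sox19a was lower in six3b cells as well, at 159 against 197 and 128 against 234. Over the split by 5 Hox genes of the hindbrain and trunk, sox1b was at 36.4 against 50.5 and 30.2 against 59.0, lower where Hox RNA was seen. Sox1a, with few UMIs in cluster 0, was higher in six3b cells as sox1b was, at 5.90 against 1.83 in low and 8.53 against 1.37 in high cells, by 1.69 (-0.05 to 3.43) and 2.64 (0.74 to 4.82) on the log2 scale. In foxg1a cells sox1a was at 7.75 against 2.52 and 30.9 against 1.89, and sox19b at 38.7 against 29.7 and 86.6 against 26.0, of which the high library's differences, 4.03 (2.03 to 5.90) and 1.74 (0.81 to 2.55), passed counting error and those of the low library did not.

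Read from sox1b, its cells carried several forebrain genes and also pax2a, a gene of the midbrain and hindbrain boundary. In cluster 0 cells with a sox1b UMI, 142 in low and 107 in high, foxg1a was at 102 against 21.8 CPM in low and 79.5 against 16.3 in high cells. The forebrain factors fezf2, at 60.5 against 13 and 59.6 against 8.29, and lhx2b, at 55.5 against 11.8 and 67.9 against 9.83, moved the same way. So did pax2a, at 82.0 against 21.1 and 99.4 against 20.9, although sox1b itself was lower in cells with en2a or en2b. Genes lower with sox1b were the proneural gene atoh1a, at 5.05 against 121 and 24.8 against 153, and hoxb5b, at 8.83 against 32.2 and 1.66 against 24.6.

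Cells with sox19a carried genes of the midbrain and the middle of the neural tube. The midbrain repressor helt was at 28.3 against 1.62 CPM in low and 32.1 against 3.27 in high cells with and without a sox19a UMI, and the head homeobox genes otx1, at 63.6 against 18.7 and 57.3 against 16.9, and otx2a, at 69.5 against 14.6 and 52.9 against 18, moved with it. Genes of the dorsal neural tube were lower with sox19a, with msx3 at 15.3 against 43.8 and 12.8 against 44.1, olig4 at 16.1 against 55.2 and 17.8 against 70.3, and bmp5 at 5.10 against 28.0 and 3.95 against 22.9. Atoh1a was lower with sox19a as well, at 31.4 against 176 and 51.9 against 222. These genes were taken from the largest differences held by both libraries, so their direction is fixed by the choice. Of 5450 genes compared in cluster 0, 34 were at least 2-fold higher and 9 lower with sox19a in both libraries, against 81 and 7 with sox3, 20 and 45 with sox1b, 14 and 15 with sox19b, and 6 and 0 with sox2. Cells with and without sox2 were thus the least different of these by this count. Group size bears on the count. In low and high, 583 and 474 cells had sox2, 561 and 456 had sox3, and 481 and 379 had sox19a. Only 142 and 107 had sox1b and 122 and 93 had sox19b, so their ratios carry more counting error.

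Cells with atoh1a, which marks the rhombic lip of the dorsal hindbrain, had more sox3 and less sox19a, sox19b and sox1b than those without. There were 75 in low and 72 in high cells. Sox3 was at 527 against 381 CPM and 561 against 414, higher than in the remaining cells by 0.47 and 0.44 on the log2 scale. Sox19a was at 42.2 against 202 and 93.9 against 222, sox19b at 9.37 against 32.1 and 12.3 against 30.4, and sox1b at 4.69 against 48.4 and 7.41 against 52.7. Sox2 was lower in the low library only, at 185 against 273, and level in the high library, at 299 against 287.

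Cells with the Notch-responsive repressor genes her12 or her15, 264 in low and 188 in high, had more of sox2, sox3, sox19a and sox19b and less sox1b. Sox3 was at 745 against 274 CPM in low and 832 against 301 in high cells. Sox19a was at 317 against 144 and 345 against 164, sox2 at 379 against 227 and 404 against 251, and sox19b at 56.4 against 21.1 and 47.0 against 22.6. Sox1b was at 34.5 against 48.2 and 33.1 against 52.7, a log2 difference of -0.48 (-0.99 to 0.00) and -0.67 (-1.27 to -0.10). The her15 copies are near-identical and their reads may be split between them, so the split used all of them at once.

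The same members but sox19b were higher beyond counting error with dbx1a or dbx1b, homeobox genes of progenitors midway along the back-to-belly axis of the neural tube, in 92 low and 98 high cells. Sox3 was at 722 against 361 CPM and 837 against 373, sox19a at 349 against 172 and 395 against 182, and sox2 at 369 against 256 and 427 against 268. Sox1b differed by less than counting error, at 54.0 against 43.8 and 51.0 against 47.5. Median depth differed across these splits, as for the engrailed cells (5319 against 4396 UMIs in low and 5777 against 4228 in high), and the part of depth was not tested.

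**Figure D5:**
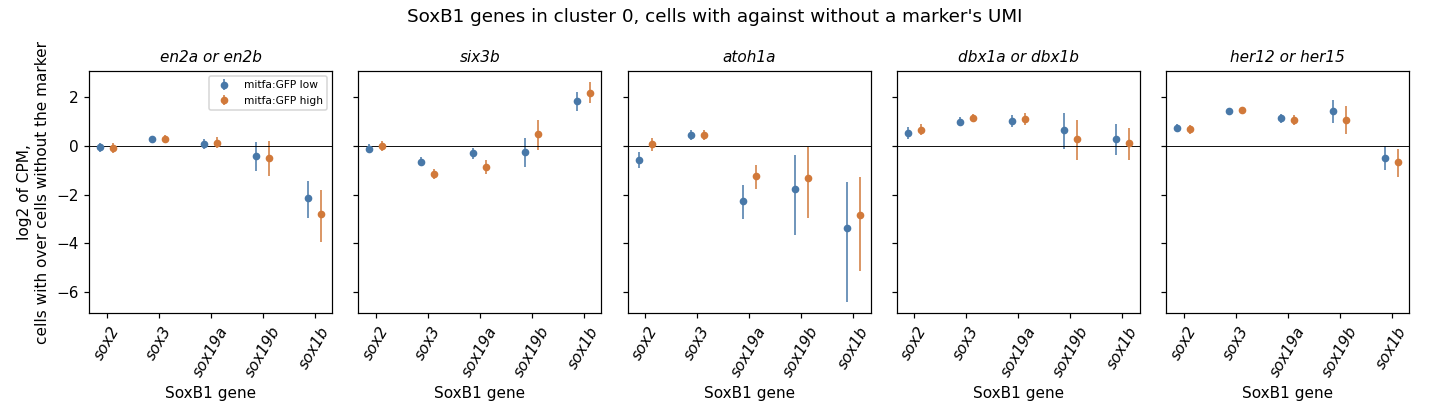
Log2 of the level in cells with a marker over cells without it (vertical axis, 0 means equal) for sox2, sox3, sox19a, sox19b and sox1b (horizontal axis) in cluster 0, 1 panel per marker, with the low library in blue, the high library in orange and exact 95% intervals. Sox1b lies at -2.14 and -2.78 with engrailed and at 1.84 and 2.19 with six3b, sox19a lies at -2.26 and -1.24 with atoh1a, and sox3 lies at 1.44 and 1.47 with her12 or her15.

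Outside the brain and eye clusters, sox2 was above the muscle-like background in crest-like cells. In epidermis-like cells sox2, sox3 and sox1b were above it. No ratio to this background was taken for mesenchyme-like cells. In crest-like cluster 1 sox2 was at 46.6 CPM (39.5 to 54.6) in low and 26.0 (21.3 to 31.4) in high cells. It was seen in 24.5% (20.2 to 29.1) and 14.7% (11.5 to 18.4) of cells, at median depths of 8319.5 and 9207 UMIs. Against the deeper muscle-like cells, with 7.14% (2.67 to 14.9) and 7.25% (2.39 to 16.1), the sox2 level was higher by 1.59 (0.78 to 2.54) in low and 1.01 (0.03 to 2.18) in high cells on the log2 scale, and the shares of the high library overlapped within counting error. Mesenchyme-like cells of the high library had a sox2 level like that of its crest-like cells, at 27.6 CPM (19.5 to 38.1). Those of the low library were lower, at 16.7 (11.2 to 23.9). Sox3 in cluster 1 was at 8.23 and 4.90 and sox19a at 6.09 and 3.92, at or under their muscle-like background, and both were lower still when the barcodes with the top doublet scores were left out. Sox2 kept a difference from cluster 0 of -2.59 in low and -3.73 in high cells without those barcodes, against -2.51 and -3.47 with them. The high library was lower than the low one in cluster 1 by -0.84 (-1.21 to -0.48) on the log2 scale.

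Crest-like cells with sox2, 93 in low and 64 in high, kept the crest gene sox10 at 761 against 757 CPM in low and 905 against 742 in high cells. They had more of the division genes mki67, at 402 against 211 and 296 against 114, and top2a, at 133 against 59.8 and 103 against 34.8. The crest gene foxd3 was at 561 against 389 and 430 against 253, and the pharyngeal arch genes dlx2a, at 493 against 301 and 285 against 115, and dlx5a, at 374 against 160 and 171 against 60.1, were higher too. Pigment genes were lower, with mitfa at 260 against 449 and 509 against 683, dct at 4.66 against 100.2 and 310 against 573, and slc45a2, a melanosome transporter, at 25.7 against 125 and 244 against 557. By assigned phase, sox2 was at 29.2 CPM in G1, 72.9 in S and 64.8 in G2M cells in low, and at 21.0, 18.8 (from 5 UMIs) and 57.8 in high cells. It was seen in 16.7%, 32.4% and 38.8% of these cells in low, at median depths of 7804, 8325 and 10050 UMIs, and in 12.4%, 15.4% and 31.9% in high, at 8899, 10134.5 and 12060. Thinned to 2000 UMIs the shares were 5.11%, 12.1% and 12.7% in low and 3.58%, 4.95% and 10.8% in high cells, so G2M stood above G1 in both libraries by level and by share, and no order is read for S. The neuron gene elavl3 was at 37.3 against 26.0 and 93 against 14.2, median depth was 9155 against 8200 UMIs and 10813.5 against 9065, and the part of doublets with neural cells was not tested. In the pigment cell clusters themselves sox2 was scarce, at 8.86 and 3.74 in xanthophore-like cluster 3 and at 21.1 (from 5 UMIs) and 5.56 in melanophore-like cluster 6.

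Epidermis-like cluster 7 held sox3 at 57.9 and 78.7 CPM, in 14.7% and 19.7% of cells, and sox2 at 37.0 and 48.7, in 14.0% and 14.5%. These UMIs sat in few cells. In low, the top 7 of 129 cells for each gene held 70% of the sox3 and 59.4% of the sox2 UMIs. In high, the top 4 of 76 cells held 52.4% and 65.4%. Against the muscle-like background sox3 was higher by 2.15 (1.19 to 3.24) and 2.78 (1.67 to 4.08) and sox2 by 1.26 (0.29 to 2.32) and 1.92 (0.78 to 3.20) on the log2 scale. Sox1b was at 13.9 CPM (7.18 to 24.3) in low, from 12 UMIs in 5 cells. In high it was at 16.9 (7.71 to 32.0), from 9 UMIs in 4 cells. Muscle-like cells had 0 sox1b UMIs (0 to 4.38 CPM in low and 0 to 5.28 in high). Cells of this cluster with at least 2 sox2 or sox3 UMIs, 17 in low and 13 in high, had less keratin RNA, with krt4 at 5718 against 16367 and 5941 against 20258 and krt5 at 227 against 1478 and 139 against 1075. The epithelial gene epcam was at 1645 against 1502 in low and lower, at 945 against 1762, in high cells, and cdh2, the cadherin of neural and placodal cells, was at 204 against 78.8 and 209 against 64.3. Cells with sox3 had more eya1, a gene of the sensory placodes, at 589 against 231 and 444 against 150. The lens genes foxe3 and cryaa, from a list of 10, had 0 UMIs in the cells with at least 2 sox2 or sox3 UMIs. With 17 and 13 such cells, nothing about lens identity is read from these zeros. The cells with at least 2 sox2 or sox3 UMIs were deeper in the high library (medians of 6388 against 6202 UMIs in low and 8782 against 6163 in high). The part of depth and of doublets with neural cells in these values was not tested. In mesenchyme-like cluster 2 sox2 was seen in 6.04% and 9.05% and sox3 in 6.04% and 6.03% of cells, at median depths of 6057 and 5888 UMIs. Muscle-like cells were deeper, at 9634 and 10488 UMIs, so these shares cannot be set against the background. By level sox2 was at 16.7 CPM in low and 27.6 (19.5 to 38.1) in high, against 15.4 and 12.9 (5.89 to 24.4) in muscle-like cells. Sox3 was at 15.5 in low and 20.2 (13.3 to 29.3) in high, against 13.1 and 11.4 (4.94 to 22.6). The intervals overlapped, as did those of sox2 in crest-like (21.3 to 31.4) and muscle-like cells of the high library. This does not by itself place a difference within counting error. No ratio to the background was taken for mesenchyme-like cells, so no order is read for them. The 19 islet-like cells of the low library had 3 sox2 and 7 sox3 UMIs.

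Of the other Sox families, the SoxB2 genes, which act against SoxB1 in neurogenesis, were divided between the clusters. Sox21a was at 38.5 and 40.7 CPM in cluster 0 and at 22.8 and 2.85 in cluster 4, whereas sox14 had 0 UMIs in cluster 0 and stood at 43.3 and 51.3 in cluster 4. The SoxC genes, which turn on neuronal genes, were higher in cluster 4, where sox2 was lower. Sox11a went from 495 in cluster 0 to 1069 in cluster 4 in low and from 521 to 1041 in high cells, sox11b from 514 to 1508 and from 530 to 1425, and sox4a from 112 to 395 and from 116 to 507. Of the SoxC genes with enough UMIs, 3 of 3 in low and 2 of 3 in high were at least 2-fold higher in cluster 4, with a median log2 difference of 1.55 and 1.43, against a median of -0.15 over all genes in each library and against 16.7% of genes that much higher in low and 16.1% in high. In retina-like cluster 5 the same 3 genes were all at least 2-fold lower than in cluster 0, with medians of -1.18 and -1.55.

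Genes of the same pathways were listed with earlier results known, and are counted by 2-fold differences of cluster 4 from cluster 0. Over all genes compared, 16.7% were that much higher and 25.2% lower in low, and 16.1% higher and 25.3% lower in high. Of the Notch pathway list, 21 of 23 genes had enough UMIs in low and 19 in high. In low 6 were higher and 12 lower, in high 3 were higher and 10 lower, and the median log2 difference was -1.49 and -1.75. The lower ones included the repressors her6, at 42.1 against 241 CPM in low and 41.3 against 260 in high cells, and her9, at 26.2 against 317 and 31.3 against 338. The higher ones included the ligands dlb, at 1232 against 77.2 and 1291 against 59.3, and dlc, at 49.0 against 2.39 and 64.1 against 1.30. Of 9 proneural genes 7 were higher and 1 lower in each library, with a median of 3.37 and 3.30. Neurod1 was at 499 against 13 and 529 against 5.44, and atoh1a was the lower one, at 4.56 against 102 and 51.3 against 133. Of 22 neural stem cell genes 6 were higher and 7 lower in low, and 5 higher and 8 lower in high, with medians of -0.49 and -0.68. Gfap, the glial filament gene, was at 46.7 against 244 and 42.7 against 247, and zic2b at 69.5 against 467 and 111 against 496.

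In retina-like cells the median of each of these lists lay below that of all genes. Over all genes compared with cluster 0, 3.55% were at least 2-fold higher and 15.8% lower in low, and 3.6% higher and 14.3% lower in high. Of the Notch pathway genes 0 were higher and 12 lower in low, and 0 and 10 in high, with median log2 differences of -1.34 and -1.19. Of the neural stem cell genes 2 were higher and 14 lower in low, and 2 and 13 in high, with medians of -1.59 and -1.38, against medians over all genes of -0.13 and -0.14. Sox2, at -0.43 and -0.28, thus lay above the medians of both lists.

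Genes whose level ran most like a member over clusters 0 to 8 in both libraries (18 points, log2 of the level plus 10 CPM, 8231 genes with at least 200 UMIs) are named by Pearson r, as a description. The points share 2 libraries and the depth of each cluster. Sox3 and sox1b ran most like each other among the members (r = 0.948), with celsr1b, pcdh19, lrp2a and otx1 also near sox3. Sox1b was nearest to otx1 (0.965), a head homeobox gene. Sox19a was nearest to fgfbp3 (0.979) and pou3f3a (0.977), a POU factor of neural progenitors, sox19b to fzd10 (0.937), a Wnt receptor, and sox2 to dtx4a (0.945), a Deltex gene.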

How the data were processed

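Cells of Tg(mitfa:GFP) embryos (2 libraries, 1 per GFP fraction) were processed by the authors, per the submitters' processing notes with Cell Ranger 6.1.2 and GRCz11. The annotation release is not given in the sources used here. The deposited matrix of each library holds raw UMI counts per gene and barcode, and these counts were used. The authors made a cell table in Seurat, with a mitochondrial percent below 5, clusters, and phases, all taken as deposited, while its scores were not used. The aggregated matrix served as an alternative.

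The low library held 2671 barcodes and 15888695 UMIs, the high library 2605 and 18225473. UMIs were summed per library and group of cells and divided by that group's total. Sums have exact Poisson, ratios exact conditional and shares exact Clopper-Pearson intervals at 95%. Thinned shares are hypergeometric expectations at 2000 UMIs, and elavl3 groups come from 1 draw with 20 repeats. A group at 0 UMIs entered a list's median at a floor of 3 counts. Named genes are the members, the 5 genes most like each by correlation, and fixed lists. Members and lists were chosen with earlier results of these data known. Genes named beside a split by a member or marker were chosen after their values were seen. The steps were tested on simulated data.

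Scrublet in scanpy 1.11.5 marked 5 and 6 barcodes by its own threshold, too few to be usable. No doublets were removed, and the 5 percent of barcodes with the top scores (124 and 131) were left out as an alternative. Other alternatives were TMM (edgeR 4.0.16), median-of-ratios factors (DESeq2 1.42.0), totals without 13 mitochondrial and 81 ribosomal protein genes, equal weight per cell, all barcodes, thinning to 1000 or 4000 UMIs, S and G2M together, 1.5-fold in place of 2-fold, at least 1 UMI in place of 50, and other minimums and pseudocounts for the correlations. Python 3.11.15, numpy 2.4.6, scipy 1.17.1, pandas 2.3.3, matplotlib 3.10.9 and R 4.3.3 were used.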

Additional observations from a re-analysis of the deposited data

Results flagged for a closer look

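A SoxB1 signal also stood in data outside the comparisons. Of the barcodes that the cell table left out, 310 in low and 231 in high, 33.5% (28.3 to 39.1) in low and 18.6% (13.8 to 24.2) in high had at least 1 SoxB1 UMI, at median depths of 945 and 1160 UMIs and SoxB1 levels of 219 and 168 CPM. Among kept cells the share was 53.4% and 42.7%. These barcodes have no cluster, so they entered only the alternative over all barcodes.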

How the results depend on the processing

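No log2 difference past 2-fold changed direction under any alternative, and the sums of SoxB1 UMIs in 80 of 87 recalculations moved by less than their counting interval. The difference of high from low over all cells moved from -0.50 to -0.40 (-0.397) under TMM, -0.40 (-0.398) under median-of-ratios factors and -0.32 with equal weight per cell. Cluster 4 against 0 in low moved from -1.09 to -1.27 under TMM and -0.92 with equal weight, which also moved G2M against G1 in low from -0.09 to -0.28 and S against G1 in high from -0.14 to 0.0011. Thinning depth set the shares of cells. At 1000 and 4000 UMIs the share with a SoxB1 UMI was 53.0% and 82.5% in cluster 0 of low, 55.7% and 84.4% in cluster 0 of high, 19.9% and 50.4% in cluster 5 of low and 25.4% and 61.4% in cluster 5 of high, and at 1000 UMIs 25.4% and 24.0% in cluster 4 of low and high. The share with at least 2 members in cluster 0 was 18.3% and 53.2% in low and 19.8% and 56% in high. The number of genes past the fold depended on the minimum and the fold. With at least 1 UMI it rose from 380 to 2968 for high against low, 63 to 4864 for the same in cluster 0, 1751 to 6583 and 1567 to 6410 (low and high) for cluster 4 against 0, 1071 to 6088 and 867 to 5606 for cluster 5 against 0, 584 to 7448 and 436 to 7064 for S against G1, 633 to 7245 and 503 to 6805 for G2M against G1, and 835 to 4709 and 772 to 4531 for elavl3. At 1.5-fold it was 1714 for high against low, 429 in cluster 0, 1759 and 1548 for cluster 5 against 0, 1343 and 1042 for S against G1, 1447 and 1130 for G2M against G1, and 1606 and 1494 for elavl3. Of the 5 genes most like sox2 and sox19a, 1 each was shared with a pseudocount of 1 CPM. No paired analysis was possible because each GFP fraction has 1 library. Depth limits sox1a and sox19b most, whose counts outside clusters 0 and 4 are few.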
